A study of Mus musculus with 73 samples.

Results

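Rnf2 knockout epiblast was compared with wild-type epiblast of the same cross at embryonic day E6.5, just before and during the onset of gastrulation. Members were all libraries titled as epiblast and Rnf2, and all titled as epiblast and Bdf1xCast. They numbered 6 and 7 embryos, 13 of the 73 samples of the series and 13 of the 72 with columns in the expression table. The series disrupted Dnmt1, the methyltransferase pair G9a and Glp, Rnf2 or Eed in mouse zygotes and asked which of them maintain expression from a single parental allele. It sequenced RNA of epiblast and extraembryonic ectoderm (ExE), the neighbouring trophoblast tissue, from single embryos.

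Both groups had a BDF1 mother and a CAST father. Zygotes were made by intracytoplasmic injection of thawed CAST sperm, and blastocysts were transferred to CD-1 females. Knockout zygotes also received Cas9 mRNA and several guide RNAs to different exons of Rnf2, chosen to avoid CAST polymorphisms so that both alleles could be cut. Wild-type embryos 1, 2, 3 and 7 were male and embryos 4, 6 and 8 female. Knockout embryos 1, 2, 3 and 5 were male and embryos 6 and 8 female. Each knockout embryo was edited on its own, so the embryos can differ in alleles and in mosaicism, and the edited DNA was not analysed here. Each embryo was cut between epiblast and ExE, the visceral endoderm was stripped off, and cDNA was made with SMART-Seq v4. Replicates are separate embryos. In such bulk RNA, fewer cells of a type and less RNA per cell cannot be told apart.

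Rnf2 encodes RING1B, the main E3 ligase of Polycomb repressive complex PRC1, which places ubiquitin on lysine 119 of histone H2A. Canonical PRC1 holds a CBX subunit that binds the H3K27 methylation made by PRC2, and is best known for keeping Hox and other developmental genes silent. Variant PRC1 complexes are recruited in other ways. One of them, with PCGF6, L3MBTL2, E2F6 and the MGA and MAX proteins, is known for silencing germline genes in early embryonic cells, at promoters with E-box (CACGTG) and E2F motifs.

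Only reads that cover a BDF1/CAST difference were counted. Levels are given as CPM, the usual scaling of such reads to the total of the library, so they can be compared between embryos for 1 gene but not between genes. Libraries held 1311863 to 3028267 reads in the wild type and 5549733 to 17653087 in the knockout. A pair of libraries stood apart. The 912 autosomal olfactory and vomeronasal receptor genes, which epiblast is not expected to use, summed to 396 CPM in wild-type embryo 8 and 102 CPM in knockout embryo 5, against 5.44 to 30.5 and 23.4 to 49.0 CPM in the other wild-type and knockout embryos. After thinning every library to 1311863 reads, wild-type embryo 8 had reads for 20567 genes, knockout embryo 5 for 17723, the other wild types for 13232 to 13846 and the other knockouts for 14482 to 15651. Markers of ExE also differed within the knockout. Elf5, a transcription factor that defines ExE, was at 16.5, 16.7 and 50.0 CPM in knockout embryos 1, 2 and 8, at 0.246 to 0.721 CPM in the others and at 0 to 3.81 CPM in the wild type. Results were therefore recomputed without the former pair and, separately, without those 3 knockout embryos.

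Rnf2 RNA itself was still present in every knockout embryo. The gene lies at chr1:151469406-151500922 (mm10) and overlaps the predicted gene Gm36527. In the wild type it was at 32.8 CPM in the lowest embryo, 45.6 at the median and 56.6 in the highest. In the knockout the values were 20.5, 19.3, 32.9, 33.4, 22.7 and 30.4 CPM for embryos 1, 2, 3, 5, 6 and 8. The groups overlapped slightly, because the lowest wild-type embryo was below the highest knockout embryos. The mean fell from 45.3 ± 9.58 (SD, n = 7) to 26.5 ± 6.42 CPM (SD, n = 6), a log2 fold change of -0.80 ± 0.21 (SE, edgeR adjusted p = 0.0074). Without the 3 Elf5-positive embryos it was -0.66 (edgeR adjusted p = 0.094). A read count does not show whether the transcript still encodes a working protein.

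The parental alleles of Rnf2 gave strongly unequal shares of its reads in 3 knockout embryos. The maternal allele gave 93.9% of Rnf2 reads in embryo 1 (exact 95% interval 90.9 to 96.2, 362 reads). It gave only 9.04% in embryo 2 (5.36 to 14.1, 188 reads) and 5.66% in embryo 5 (3.20 to 9.16, 265 reads). Embryos 3, 6 and 8 had both alleles, at 69.4%, 61.1% and 50.5%. Wild-type embryos ranged from 36.9% to 66.3%, so embryos 1, 2 and 5 lay far outside them and in opposite directions. Knockout embryo 3 (63.5 to 74.9, 268 reads) lay slightly above that range. Its interval overlapped that of the highest wild-type embryo (55.3 to 76.1, 86 reads). The intervals cover counting error only, because these reads carry no molecular identifiers. Ring1, which encodes RING1A, the paralogous ligase, was too low to be tested, at 3.9 ± 1.26 CPM (SD, n = 7) in the wild type and 2.71 ± 0.519 CPM (SD, n = 6) in the knockout.

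**Figure D1:**
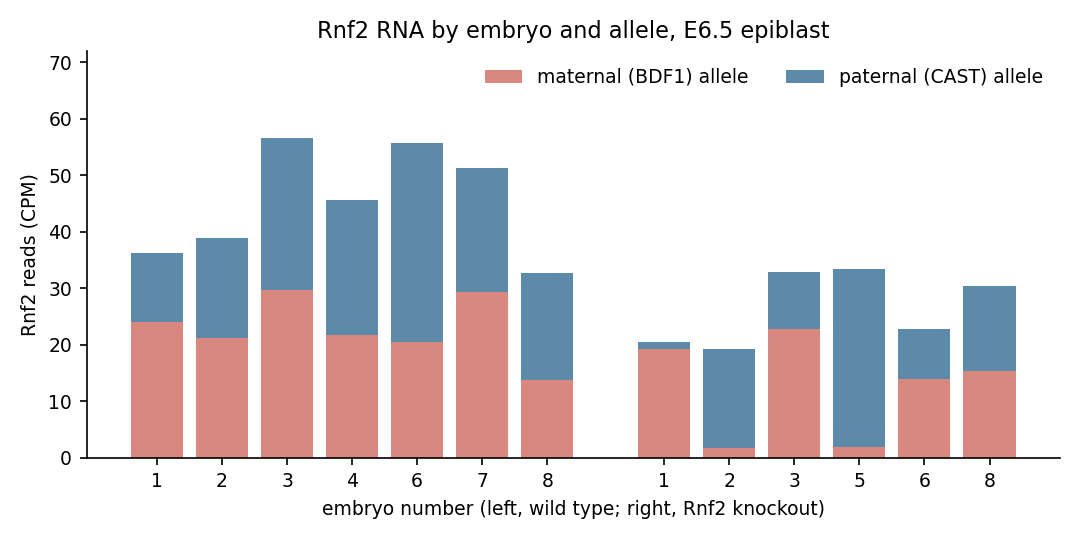
Rnf2 reads (CPM, vertical axis) in each wild-type and knockout epiblast, 1 bar per embryo, split by parental allele. Knockout embryo 1 keeps mostly maternal reads and embryos 2 and 5 mostly paternal reads, while the wild-type embryos have both.

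Across the epiblast transcriptome, 3055 of 9792 tested autosomal genes passed the test (edgeR quasi-likelihood, Benjamini-Hochberg adjusted p under 0.05). Of the tested genes, 1797 (18.4%) were higher in the knockout and 1258 (12.8%) lower. Large changes were mostly rises. Among the called genes, 1169 rose and 329 fell by more than 2-fold, and 104 rose and 6 fell by more than 8-fold. The median log2 fold change of all tested genes was 0.001. With the 3 Elf5-positive embryos left out, which leaves 3 knockout embryos, 999 genes were higher and 580 lower. Counting non-overlap instead, over all 27556 autosomal genes with a read, 3.81% had every knockout embryo above every wild-type embryo and 1.32% had the reverse. These percentages are the background for the gene lists below.

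**Figure D2:**
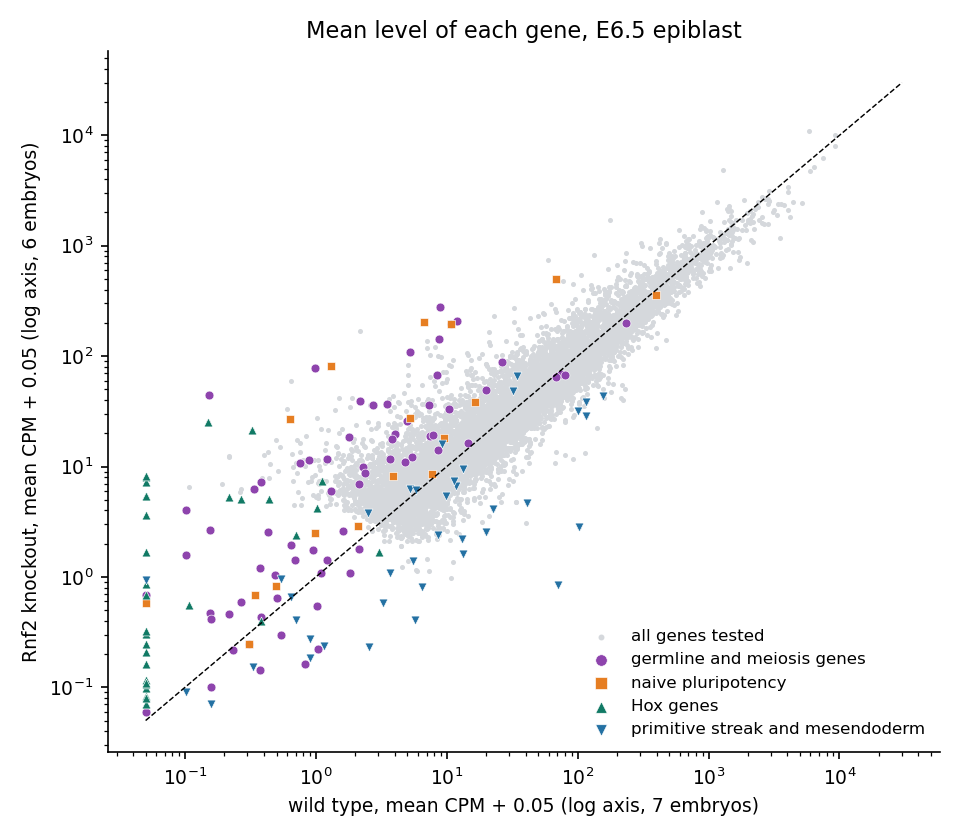
Mean level of each gene in 7 wild-type embryos (horizontal) and 6 knockout embryos (vertical), both as CPM + 0.05 on log axes, with 4 gene lists in colour and the line of equal level dashed. Germline, naive pluripotency and Hox genes lie mostly above the line, and primitive streak genes mostly below it.

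Of the lists examined, germline and meiosis genes held the largest number that rose, but not the largest share of tested genes. That share was 80.6%, beside 81.8% for naive pluripotency and 82.4% for cell-cycle inhibitors and p53 targets. Of 71 listed germline and meiosis genes, 69 were in the table, 36 were tested, 29 rose and none fell, against 18.4% of all tested genes higher. The median log2 fold change of the 36 was 2.28. Members nearly silent in the wild type could pass the filter on low counts only through their knockout reads, which favours rises in this share. A stricter filter asked for 10 reads or more in 3 or more libraries, both in the wild type and in the knockout. It left 22 germline genes, of which 16 rose and none fell, beside 1522 higher of all 9190 genes tested that way. Of the 69 in the table, 27 had every knockout embryo above every wild-type embryo, against 3.81% of all genes. The summed level of the list was 561 to 787 CPM in the wild type and 1518 to 2846 CPM in the knockout, so the groups did not overlap.

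The promoters of 3 genes that rose are shown as examples of a match to the motifs known for the variant PRC1 complex, and were picked for that match. All 3 hold CACGTG, and Ddx4 alone of them also holds the E2F motif. Tex101 and Syce1, which also rose, hold neither motif in the same window. Each is the 250 bases before the RefSeq start (GRCm38.p6), read along the gene's strand. Capitals mark CACGTG or, in either orientation, TTCCCGC. They are Ddx4 at chr13:112652311-112652560 on the minus strand, Slc25a31 at chr3:40708621-40708870 on the plus strand and Sycp1 at chr3:102936101-102936350 on the minus strand.
Ddx4: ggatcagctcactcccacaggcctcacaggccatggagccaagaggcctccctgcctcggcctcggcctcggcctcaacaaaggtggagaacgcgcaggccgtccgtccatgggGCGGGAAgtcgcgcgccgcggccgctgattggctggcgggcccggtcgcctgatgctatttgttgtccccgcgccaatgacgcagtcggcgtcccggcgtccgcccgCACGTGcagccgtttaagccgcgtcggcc
Slc25a31: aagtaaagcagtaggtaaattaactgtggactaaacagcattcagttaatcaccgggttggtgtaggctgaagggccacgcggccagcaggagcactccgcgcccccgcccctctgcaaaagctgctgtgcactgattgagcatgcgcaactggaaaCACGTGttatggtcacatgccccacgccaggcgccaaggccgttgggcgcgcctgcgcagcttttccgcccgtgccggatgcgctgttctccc
Sycp1: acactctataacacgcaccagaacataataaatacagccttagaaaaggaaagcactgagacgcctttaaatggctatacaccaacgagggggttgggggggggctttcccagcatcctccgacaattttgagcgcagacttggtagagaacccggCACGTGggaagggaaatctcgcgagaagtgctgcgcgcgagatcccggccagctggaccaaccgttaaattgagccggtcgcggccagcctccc

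CACGTG, which reads the same on both strands, lay in 17 of the 60 germline-list promoters that matched a RefSeq entry (28.3%), and in 9 of the 24 matched promoters of those that rose (37.5%). It lay in 6.04% of 27025 promoters of the same length and in 8.57% of 7361 promoters of tested genes. The E2F motif TTCCCGC or its reverse complement GCGGGAA lay in 10 of the 60 (16.7%), in 3.87% of all promoters and in 7.36% of those of tested genes. For comparison, 3 of 22 matched Hox promoters had CACGTG and 0 had the E2F motif. A match describes the letters of this window and not binding.

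Ddx4, the RNA helicase also called mouse vasa homologue and a marker of germ cells, was at 3.79 CPM in the lowest wild-type embryo, 8.31 at the median and 16.8 in the highest. In the knockout the corresponding values were 82.3, 142 and 218 CPM. Every knockout embryo was therefore well above every wild-type embryo. The log2 fold change was 4.06 ± 0.27 (SE, edgeR adjusted p = 1.38e-07). Wild-type ExE held 0.715 to 10.8 CPM.

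Slc25a31, the ADP/ATP carrier of male germ cell mitochondria, had 2.77, 6.53 and 17.5 CPM as its lowest, median and highest wild-type values. The knockout values were 204, 266 and 377 CPM, again with no overlap. Its log2 fold change was 4.99 ± 0.37 (SE, edgeR adjusted p = 2.77e-07), and wild-type ExE held 2.62 to 7.45 CPM.

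Sycp1 and Syce1 encode parts of the synaptonemal complex, the scaffold that holds paired chromosomes in meiosis, and both rose. Sycp1, its transverse filament protein, rose from 0.934 ± 0.896 CPM (SD, n = 7) to 78.1 ± 40.5 CPM (SD, n = 6). Syce1, a central element protein, rose from 5.22 ± 3.21 to 108 ± 17.7 CPM (log2 fold change 4.27 ± 0.35). The pseudogene Sycp1-ps1, a separate locus whose sequence can share reads with Sycp1, rose from 3 reads to 605, a ratio of 60.6 per read sequenced (counting interval 20.6 to 295), and is uncertain as a separate gene. Tex101, a germ cell surface glycoprotein, had 2 reads in all wild-type embryos together and 2080 in the knockout. Per read sequenced this is a ratio of 313, with a counting interval of 86.4 to 2583.

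Further germline genes were examined after their values were seen. Fkbp6, a co-chaperone of the piRNA pathway, rose from 11.9 ± 6.1 to 206 ± 97.5 CPM, and wild-type ExE held 33.3 to 94.2 CPM. Dazl, an RNA-binding protein required in germ cells, was too low in the wild type to be tested in the main comparison, with 1 read there and 183 in the knockout, a ratio of 55.0 (counting interval 9.75 to 2185). Without the 3 Elf5-positive embryos, 26 of 37 tested germline genes still rose and none fell. Ddx4, Slc25a31, Sycp1 and Tex101 passed the test under every alternative in which they could be tested. The median maternal share of reads over the 29 genes that rose was 51.0% in the knockout, and 28 of the 29 lay between 20 and 80%. This is near the background, since 1694 of 1797 genes called higher and 9282 of 9789 tested genes lay there too.

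**Figure D3:**
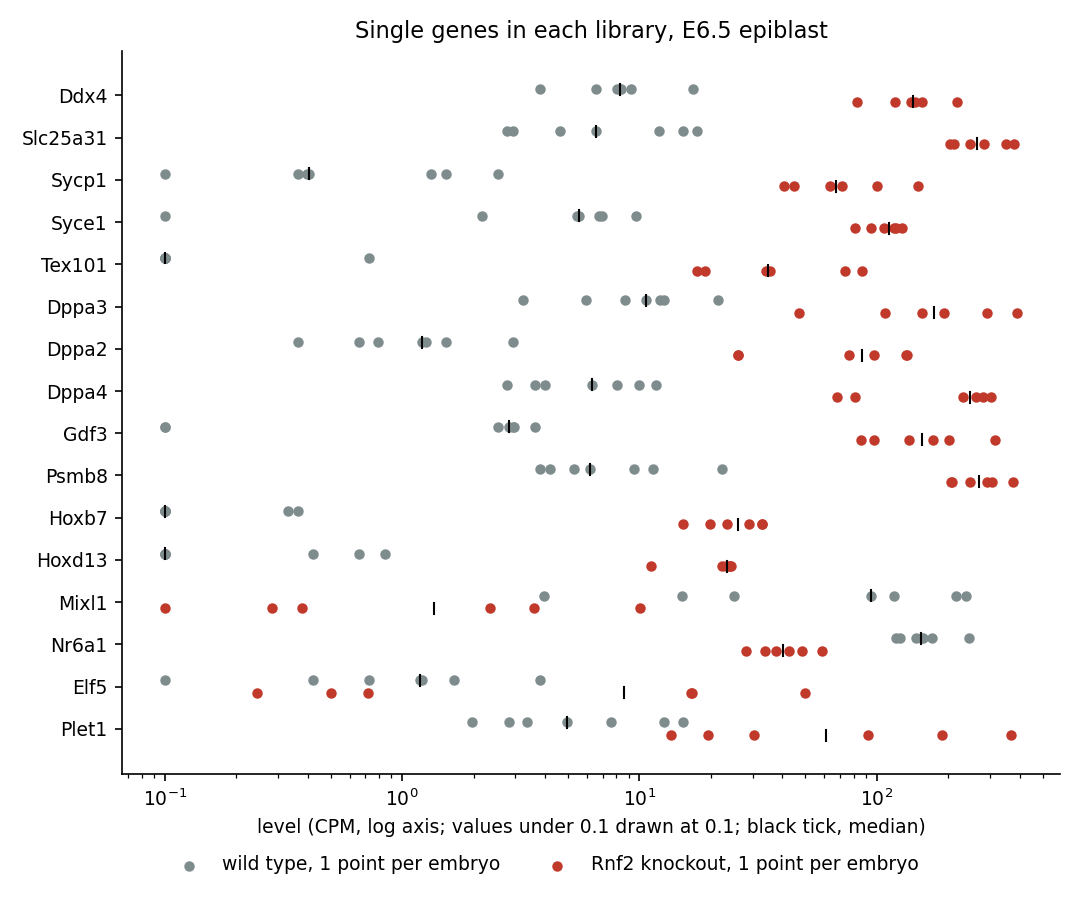
Level of 16 single genes in each library (CPM, log axis, values under 0.1 drawn at 0.1), 1 point per embryo with the median as a black tick. Germline, naive pluripotency and Hox genes separate the groups, while Elf5 and Plet1 are spread widely among the knockout embryos.

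Genes of naive pluripotency, the state of the inner cell mass that epiblast leaves at implantation, were also higher. Of 18 listed, 17 were in the table, 11 were tested and 9 rose (81.8%, against 18.4% of all tested genes). None were lower, and the median log2 fold change was 2.41 over the 11. The filter on low counts favours rises in this share too. Under the stricter filter described for the germline list, 9 naive genes were tested, 7 rose and none fell. The summed level was 284 to 612 CPM in the wild type and 752, 712, 1537, 2103, 1504 and 2255 CPM in knockout embryos 1, 2, 3, 5, 6 and 8. All knockout embryos were above all wild types, and embryos 1 and 2 were the lowest of them. The Elf5-positive embryos were therefore at both ends of this range. Without them, 7 of 12 tested genes rose and none fell. Without the 2 libraries high in receptor reads, 8 rose and 1 fell.

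Dppa2 and Dppa4, neighbouring genes whose protein products work as a pair on germline and early embryonic promoters, rose together. Dppa4 had 2.77, 6.32 and 11.7 CPM as its lowest, median and highest wild-type values and 67.7, 246 and 304 CPM in the knockout. Dppa2 rose from 1.25 ± 0.843 to 82.2 ± 48.7 CPM (log2 fold change 6.05 ± 0.53). Wild-type ExE expressed both, with 349 to 568 CPM of Dppa4 and 45.5 to 106 CPM of Dppa2, and the part of ExE cells in the epiblast values was not tested. Dppa3, also called Stella and a protein of oocytes and primordial germ cells, rose from 10.7 ± 5.83 to 197 ± 125 CPM. Wild-type ExE held no more than 5.38 CPM of Dppa3.

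Gdf3, a Nodal-related ligand of pluripotent cells on the Nodal and Bmp list, had wild-type values from 0 to 3.63 CPM and knockout values from 86.1 to 315 CPM. It rose by 6.18 ± 0.47 on the log2 scale (edgeR adjusted p = 2.77e-07), with 0 to 1.86 CPM in wild-type ExE. Gdf3, Dppa3 and Nanog lie close together on chromosome 6, but Nanog was not called (93.4 and 95.4 CPM). Tcl1, a co-activator of Akt kinases, rose from 0.584 ± 0.904 to 26.6 ± 14.4 CPM. In 6 of the 9 naive genes that rose, 1 parental allele gave more than 80% of the reads, and their median maternal share was 82.2%. Over all genes, 1694 of 1797 called higher and 9282 of 9789 tested lay between 20 and 80%. With a single direction of cross in these groups, parent and strain cannot be told apart in such a share.

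Hox genes, the classic canonical PRC1 targets, were nearly silent in the wild type and read at low levels in the knockout. Of 39 Hox genes, 35 were in the table and 24 of these had no wild-type read. Because so few could pass the filter on low counts, only 3 were tested and all 3 rose. Genes this low in the wild type could pass only through their knockout reads, so that count is no separate support for a rise. When each group needed at least 10 reads in at least 3 libraries, 0 Hox genes could be tested. A count that does not need the filter is that 13 of the 35 had every knockout embryo above every wild-type embryo, against 3.81% of all genes. After thinning all libraries to the same depth, 2 to 8 Hox genes had a read in a wild-type embryo and 18 to 23 in a knockout embryo. The summed level was 1.61, 4.35 and 19.8 CPM at the lowest, median and highest wild-type embryo and 60.2, 125 and 152 CPM in the knockout.

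Hoxb7 was the Hox gene with the largest fitted change. It had 2 reads in the wild type as a whole and 1453 in the knockout, a ratio of 218 per read sequenced (counting interval 60.4 to 1805). Its knockout values ran from 15.2 to 32.9 CPM with a median of 26.1, and none of the 7 wild-type ExE libraries had a read. Hoxd13, the most posterior gene of its cluster, was at 0 to 0.843 CPM in the wild type and at 11.2, 23.5 and 24.3 CPM at the lowest, median and highest knockout embryo (log2 fold change 6.04 ± 0.47, edgeR adjusted p = 3.91e-07). Hoxb2, an anterior gene, rose from 1.06 ± 1.25 to 7.36 ± 1.71 CPM. Several genes had no wild-type read at all, so that only the lower end of the counting interval could be given. It was 37.9-fold for Hoxd9, 34.8-fold for Hoxa9, 34.0-fold for Hoxa7 and 27.3-fold for Hoxc10. All 4 Hox clusters were thus represented. Hoxd11 and Hoxd10 overlap on the genome, as do Hoxd3, Hoxd8 and Gm38462, and are uncertain as separate genes. Gm38462 rose from 1 wild-type read to 373, a ratio of 112 (counting interval 20.003 to 4441). Hoxb1, an early gene of the primitive streak, was an exception, with 44 wild-type reads and means of 3.01 ± 3.49 and 1.65 ± 0.891 CPM. It was too low to be tested.

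Other developmental transcription factors responded less uniformly. Of 191 listed, 178 were in the table and 22 were tested, with a median log2 fold change of 1.11. Of the 22, 10 rose (45.5%) and 2 fell (9.09%), against 18.4% and 12.8% of all tested genes. Factors nearly silent in the wild type could pass the filter only through their knockout reads, which favours rises in this share. Under a stricter filter, which asked both groups for 10 reads or more in 3 or more libraries, 10 were tested, 1 rose and 2 fell. After thinning, 9 were tested, 2 rose and 2 fell. Of the 178, 17 had knockout embryos all above the wild type, against 3.81% of all genes. Nkx2-9 of ventral neural tube rose by 5.09 ± 0.56 on the log2 scale, Barx1 by 4.94 ± 0.63 and Wt1 of the urogenital ridge by 4.87 ± 0.72. Sall3 fell by 1.72 ± 0.39 on the log2 scale. Foxa2, a factor of node and endoderm, fell by 3.03 ± 0.86 (edgeR adjusted p = 0.0136), but the adjusted p was 0.054 without the libraries high in receptor reads and 0.067 without the 3 Elf5-positive embryos. The summed level of the list did not separate the groups, because wild-type embryo 8 was at 852 CPM, above the knockout range of 383 to 509 CPM. The other wild types were lower than the lowest knockout.

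**Figure D4:**
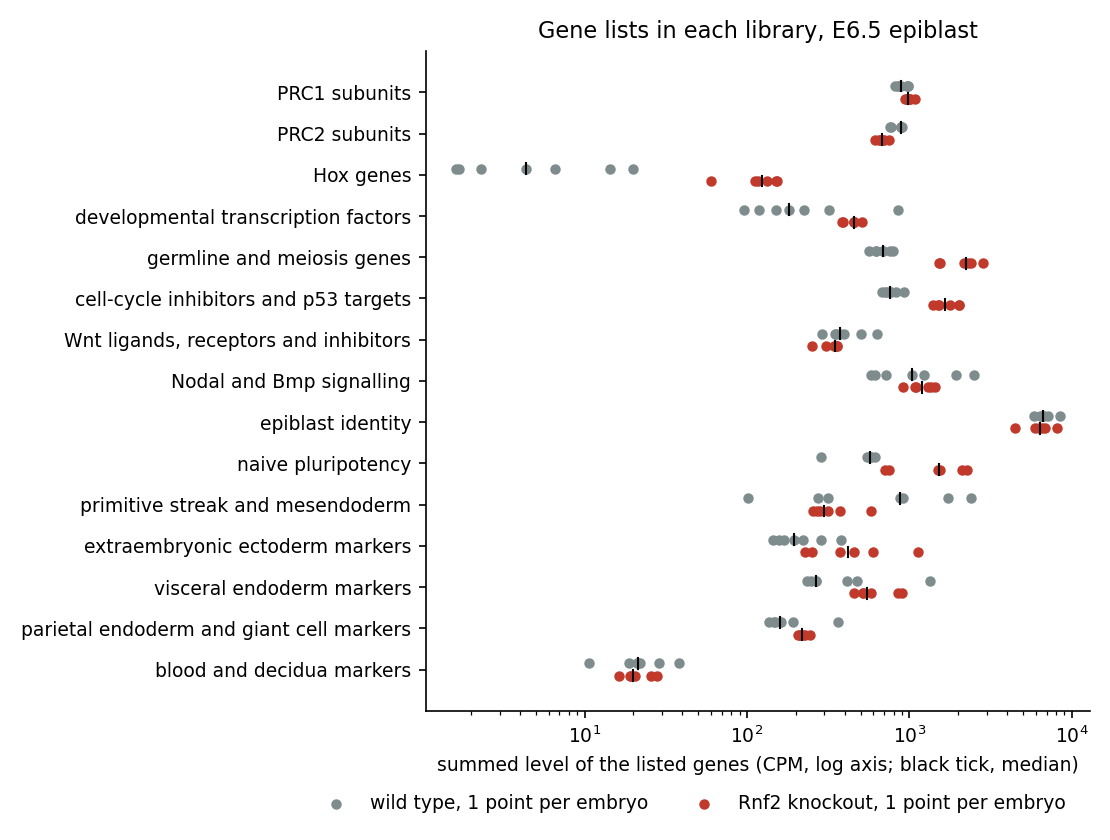
Summed level (CPM, log axis) of each gene list in every epiblast library, 1 point per embryo with the median as a black tick. Hox, germline, cell-cycle inhibitor and naive lists separate knockout from wild type, and the ExE and visceral endoderm markers overlap between them.

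Cell-cycle inhibitors and p53 targets were higher in the knockout. Of 27 listed genes, 17 were tested, 14 rose (82.4%, against 18.4% of all tested genes) and none fell. The median log2 fold change was 1.17, and summed levels were 681 to 927 CPM in the wild type and 1400 to 2020 CPM in the knockout. Without the 3 Elf5-positive embryos, 8 of 17 rose. Ccng1, a p53 target encoding cyclin G1, had 42.3, 59.9 and 88.4 CPM at the lowest, median and highest wild-type embryo and 207, 278 and 432 CPM in the knockout (log2 fold change 2.24 ± 0.21, edgeR adjusted p = 2.37e-06). The groups did not overlap. Cdkn1c, the imprinted inhibitor p57, rose from 8.37 ± 3.41 to 30.7 ± 5.54 CPM. Trp53inp1, a p53-induced regulator of stress responses, rose by 2.56 ± 0.30 and Ei24, a p53-induced protein, by 1.28 ± 0.18 on the log2 scale. Named after their values were seen, Cdkn1a, which encodes p21, rose from 21 ± 11.2 to 76.3 ± 38.3 CPM and Bax, a promoter of apoptosis, from 135 ± 56.5 to 375 ± 101 CPM. Both groups had been fertilised by sperm injection, but only the knockout zygotes were injected with Cas9 and guides, so DNA cutting and the loss of Rnf2 cannot be told apart in this comparison. In Eed knockout epiblast, made by the same procedure, 13 of 16 tested genes of the list were higher than in the same wild type, against 18.2% of all genes tested there, and the sum was 1358 to 1723 CPM. In the direct test 1 of 19 genes of the list was higher in the Rnf2 than in the Eed knockout and none lower. Of all genes tested there 2.28% were higher and 1.62% lower, so this count was near the background.

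Genes of the Polycomb complexes themselves changed in both directions. Of 26 PRC1 subunit genes in the table, 19 were tested, 6 rose (31.6%) and 2 fell (10.5%), against 18.4% and 12.8% of all tested genes. The share that fell was thus near the background. Cbx8, a canonical PRC1 subunit that reads H3K27 methylation, was the largest rise, from 0.983 ± 1.03 to 11.3 ± 2.98 CPM (log2 fold change 3.63 ± 0.57, edgeR adjusted p = 0.000208). Max, the partner of MGA in the germline complex, rose from 8.14 ± 2.59 to 29.9 ± 10.9 CPM. Bmi1 and Pcgf5, both PCGF subunits of different PRC1 forms, rose by 1.93 and 1.15 on the log2 scale. The 2 that fell were Rnf2, the edited gene itself, and Phc1, a canonical subunit. Phc1 fell from 86.4 ± 7.78 to 64.4 ± 12.2 CPM, a call lost in 8 of 28 alternatives. Pcgf6, Mga, E2f6 and L3mbtl2 of the germline complex were not called. Of 9 tested PRC2 genes, 2 rose and 2 fell (22.2% each, against the same 18.4% and 12.8%), with a median log2 fold change of -0.31. The summed level of PRC2 genes was 762 to 896 CPM in the wild type and 616 to 751 CPM in the knockout, so every knockout embryo was below every wild-type embryo. Mtf2, an accessory subunit that recruits PRC2 to CpG islands, fell from 134 ± 29.5 to 74.6 ± 9.72 CPM (edgeR adjusted p = 0.00123), and Ezh2, the methyltransferase, from 176 ± 24.8 to 126 ± 18.2 CPM. Ezh1, the paralogue, and E130012A19Rik, which encodes a PRC2-associated protein, rose. The calls for Ezh1, E130012A19Rik and Ezh2 were lost in 7, 5 and 5 of 28 alternatives. Without the 3 Elf5-positive embryos none of the PRC2 genes rose and 1 fell.

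Signalling genes moved in both directions. On the list of Nodal and Bmp signalling, 6 of 22 tested genes rose (27.3%) and 3 fell (13.6%). Of all tested genes 18.4% rose and 12.8% fell, so the share that fell was near the background. Nodal, the ligand of mesendoderm induction, was at 11.6, 19.4 and 51.8 CPM at the lowest, median and highest wild-type embryo and at 47.4, 78.6 and 85.5 CPM in the knockout (log2 fold change 1.63 ± 0.25). Only the highest wild-type embryo reached the knockout range. Bmp4, an ExE ligand, rose from 0.65 ± 0.509 to 10.6 ± 7.55 CPM, and Bmp8b from 2.57 ± 1.51 to 21.8 ± 13.9 CPM. Wild-type ExE held 27.7 to 93.8 CPM of Bmp4 and 191 to 382 CPM of Bmp8b, and the part of ExE cells in these rises was not tested. Fst and Chrd, secreted inhibitors of activin and Bmp, fell by 2.97 ± 0.56 and 2.59 ± 0.54 on the log2 scale. Smad1, which carries the Bmp signal to the nucleus, fell by 1.41 ± 0.40, with an adjusted p of 0.085 without the 3 Elf5-positive embryos (edgeR). On the Wnt list, 1 of 12 tested genes rose (8.33%) and 3 fell (25%), against the same 18.4% and 12.8%. The receptor gene Fzd6 rose from 20.9 ± 6.34 to 46.8 ± 3.93 CPM, whereas Fzd5, Fzd7 and Fzd1 fell by 1.22, 0.74 and 1.52 on the log2 scale. The call for Fzd7 was lost without the 3 Elf5-positive embryos (edgeR adjusted p = 0.141).

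Several primitive streak and mesendoderm genes were lower in the knockout, and the list spread widely among wild-type embryos. Of 18 tested genes, 6 fell (33.3%) and 1 rose (5.56%), against 12.8% and 18.4% of all tested genes. The median log2 fold change was -1.17, and without the libraries high in receptor reads 4 fell and 3 rose. The summed level was 916, 101, 313, 274, 1732, 878 and 2392 CPM in wild-type embryos 1, 2, 3, 4, 6, 7 and 8, and 255 to 579 CPM in the knockout. The groups overlapped, since wild-type embryos 2, 3 and 4 were as low as the knockouts. Mixl1, a homeobox gene of the streak, ran from 3.96 to 239 CPM with a median of 94.8 in the wild type and from 0 to 10.03 CPM with a median of 1.36 in the knockout (log2 fold change -5.06 ± 0.95, edgeR adjusted p = 0.000913). Eomes fell by 1.65 ± 0.42 and Sp8 by 2.46 ± 0.47 on the log2 scale. T (brachyury), the standard streak marker, had 156 ± 130 and 43.6 ± 53.3 CPM and was not called (edgeR adjusted p = 0.0925). Vim rose from 34.2 ± 10.9 to 65.6 ± 21 CPM. How far each embryo had developed within E6.5 was not tested.

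Genes of epiblast identity moved in both directions, in shares near those of all tested genes. Of 27 tested genes on that list 7 rose (25.9%) and 4 fell (14.8%), against 18.4% and 12.8% of all tested genes. The median log2 fold change was 0.13. The summed level overlapped, at 5849 to 8406 CPM in the wild type and 4466 to 8160 CPM in the knockout. Fgf5, a marker of postimplantation epiblast, was at 382 ± 106 and 402 ± 79.2 CPM and was not called, as was also so for Otx2 and Sox2. Utf1, a chromatin protein of pluripotent cells, rose from 77.8 ± 39.5 to 479 ± 71 CPM with no overlap. Dnmt3l, the catalytically inactive cofactor of de novo DNA methylation, rose from 8.08 ± 7.7 to 67.4 ± 68.3 CPM, and wild-type ExE held 63.2 to 171 CPM. Its partner enzyme Dnmt3b fell from 2820 ± 466 to 1561 ± 736 CPM (edgeR adjusted p = 0.00703), but without the 3 Elf5-positive embryos the adjusted p was 0.118. Sall4 fell from 539 ± 60.5 to 390 ± 38.2 CPM. Fgf15 rose by 1.17, and Lin28b and Slc35d3 fell by 0.69 and 1.19 on the log2 scale, calls that were lost in 7, 16 and 15 of 28 alternatives. Pou5f1 (Oct4) rose by 2.60 ± 0.53 on the log2 scale, from very few reads (0.635 and 4.42 CPM).

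Markers of other cell types were measured beside these results. Of 15 tested ExE markers 8 rose (53.3%) and 1 fell (6.67%), against 18.4% and 12.8% of all tested genes. Their summed level was 145 to 379 CPM in the wild type, 2402 to 3792 CPM in wild-type ExE, and 459, 594, 228, 251, 373 and 1130 CPM in knockout embryos 1, 2, 3, 5, 6 and 8. Plet1 was at 1.98 to 15.2 CPM in the wild type and at 91.6, 189, 19.4, 30.3, 13.5 and 366 CPM in those knockout embryos, so the same 3 embryos led in both. With these 3 left out, 5 of 14 tested ExE markers still rose and 1 fell. Of all 10197 genes tested in that setting, 999 were higher and 580 lower. Cdx2, which defines trophoblast stem cells, had no wild-type read. Krt18 and Sfmbt2 rose from 13.9 ± 5.63 to 73.6 ± 27.3 CPM and from 4.97 ± 3.41 to 66.7 ± 31.2 CPM. Of 7 tested visceral endoderm markers 1 rose (14.3%, against 18.4% of all tested genes). It was Apoe, from 160 ± 153 to 408 ± 156 CPM, and its adjusted p was 0.082 without the 3 Elf5-positive embryos (edgeR). The defining visceral endoderm genes Afp and Ttr were at most 5.82 and 3.42 CPM in the knockout but reached 268 and 53.4 CPM in wild-type embryo 8. Summed visceral endoderm markers were 458 to 907 CPM in the knockout, 1347 CPM in wild-type embryo 8 and 233 to 476 CPM in the other wild types. Of 4 tested parietal endoderm markers Sparc rose, from 22.2 ± 10.3 to 75.7 ± 15.7 CPM, and blood and decidua markers were low in both groups, at 10.7 to 38.1 and 16.2 to 27.9 CPM.

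Some of the strongest single rises lay outside the lists. Psmb8, an immunoproteasome subunit, was at 3.79, 6.17 and 22.2 CPM in the lowest, median and highest wild-type embryo and at 205, 268 and 376 CPM in the knockout. The groups did not overlap, and the log2 fold change was 4.92 ± 0.35 (edgeR adjusted p = 2.75e-07). Zbp1, a sensor of Z-form nucleic acid, rose from 0.555 ± 0.823 to 33.2 ± 17.5 CPM. Cxcl14, a chemokine, had 3 wild-type reads against 612, a ratio of 61.3 per read sequenced (counting interval 20.9 to 298).

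Falls were smaller than rises, and those with the smallest adjusted p included abundant transcripts. Set, a histone chaperone, fell from 3540 ± 676 to 1167 ± 208 CPM, and Ptges3, an Hsp90 co-chaperone, from 1950 ± 314 to 694 ± 99 CPM. Nr6a1, the orphan receptor GCNF, which represses pluripotency genes as embryos develop, was at 121, 153 and 244 CPM at the lowest, median and highest wild-type embryo and at 28.1, 40.2 and 58.6 CPM in the knockout. It fell by 1.96 ± 0.18 on the log2 scale with no overlap (edgeR adjusted p = 2.37e-06). Klhl9, Amt and Foxn3 fell by 1.76, 1.67 and 1.09. The axon guidance receptor gene Robo1 fell from 67.9 ± 17 to 13.6 ± 5.85 CPM. The other large falls without overlap were Cyp2e1 by 3.01, Pilra by 2.59, Hlf and LOC108168883 each by 2.47, Fabp7 by 2.30 and Ppm1k by 2.25. The adjusted p for Hlf was 0.0512 without the 3 Elf5-positive embryos (edgeR). Pilra overlaps Zcwpw1, and Cyp2e1, Pilra, LOC108168883 and Ppm1k each had their highest value in wild-type embryo 8, the library high in receptor reads.

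Eed knockout epiblast (9 embryos), in which the same procedure targeted a PRC2 subunit, was compared directly with the Rnf2 knockout. Only 238 of 10461 tested genes (2.28%) were higher in the Rnf2 knockout and 169 (1.62%) lower, and without TMM scaling the split was 159 higher and 266 lower. Against the wild type, in a separate fit, 18.2% of genes were higher and 19.2% lower in Eed embryos. These last comparisons share the wild-type controls. Germline genes were higher in the Rnf2 knockout for 16 of 39 tested and lower for none. Slc25a31 differed by 3.04 ± 0.21 on the log2 scale (edgeR adjusted p = 1.27e-08), with 279 ± 71.5 CPM against 36.5 ± 11.9 CPM (SD, n = 9). Ddx4 differed by 2.37 ± 0.22, at 143 ± 45 against 29.6 ± 10.5 CPM. Naive genes were higher for 5 of 11. Of 9 tested Hox genes 1, Hoxb7, was higher, by 2.87 ± 0.35, and Hoxd13 differed by 0.72 ± 0.20 (edgeR adjusted p = 0.0506). Nr6a1 was lower in the Rnf2 knockout by 1.18 ± 0.18 on the log2 scale, while Mixl1, low in both, was at 2.77 and 9.13 CPM. The parental share differed between the 2 knockouts for 7 of 10431 tested genes (0.0671%).

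The parental share changed in far fewer genes than the level. Of 9190 autosomal genes with enough allele-assigned reads, 30 (0.326%) shifted to the maternal side and 33 (0.359%) to the paternal side (edgeR quasi-likelihood on allele counts). Of 37 tested imprinted genes 4 were called: Zdbf2, Peg3, Cd81 and Sfmbt2. A further 7 had an unadjusted p under 0.05. Counted with the called genes these were 11 of 37, beside 807 of all 9190 tested genes with such a p (edgeR).

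Zdbf2, a paternally expressed zinc-finger gene whose maternal allele is kept silent by Polycomb marks, gained its maternal allele. It lies at chr1:63200358-63314576 (mm10) and overlaps Gpr1, 1700039I01Rik and Gm11608. The maternal share of reads was 1.3, 2.99, 0, 0, 5.77, 3.85 and 0% in the wild type, and 51.6, 49.2, 46.6, 36.7, 32.5 and 66.7% in knockout embryos 1, 2, 3, 5, 6 and 8. No embryos overlapped. Maternal reads rose from 0.649 ± 0.864 to 15.9 ± 5.16 CPM while paternal reads were 30.5 ± 8.83 and 20.04 ± 11.4 CPM. The change of share was 5.19 ± 0.50 on the log2 ratio scale (edgeR adjusted p = 2.14e-05), and it was called in all 24 alternatives. The total level was not called (31.2 and 35.9 CPM, edgeR adjusted p = 0.622).

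Other imprinted genes moved less. A set of 16 imprinted genes, near-monoallelic in the wild type, was also read as a whole. Without Zdbf2, its median silent-allele share was 4.44% in wild-type embryo 8 and 0 to 1.33% in the other wild types. In knockout embryos 1, 2, 3, 5, 6 and 8 it was 1.20, 1.11, 1.73, 4.42, 8.18 and 7.07%. A set near-monoallelic in the wild type favours a low wild-type share, and the cause was not tested. Peg3 rose in maternal share from 0.897 ± 0.849% to 5.74 ± 4.66% (edgeR adjusted p = 0.0408), with embryos 3 and 6 highest at 11.5 and 11.7%. The call was lost in 15 of 24 alternatives, and its level fell from 222 ± 120 to 95.1 ± 31.4 CPM. Cd81 fell from 67.6 ± 3.58% to 57.7 ± 2.85% maternal (edgeR adjusted p = 0.00817) while its level rose from 164 ± 43.9 to 369 ± 119 CPM. The adjusted p for the share was 0.121 without the 3 Elf5-positive embryos and 0.115 with limma on log2 ratios. It overlaps R74862. Sfmbt2, a Polycomb-group gene imprinted in trophoblast, had 2 to 15 reads per wild-type embryo, and its call was lost in 16 of 20 alternatives. Its paternal reads rose from 1.86 ± 1.11 to 54.2 ± 22.6 CPM and its maternal reads from 3.12 ± 3.58 to 12.5 ± 10.04 CPM, beside 360 to 618 CPM in wild-type ExE. For Cdkn1c the wild types were 100% maternal in every embryo, and the knockouts were at 93.6, 96.0, 81.8, 92.3, 75.8 and 86.5%, none reaching 100%, but the test gave an adjusted p of 0.116 with 11 to 29 wild-type reads per embryo (edgeR). Slc38a4 was at 1.74 ± 2.18% and 4.68 ± 4.41% and was not called. H19 rose in level from 32.4 ± 22.3 to 274 ± 223 CPM, beside 1049 to 2144 CPM in wild-type ExE.

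The other called genes are not on the list of 74 imprinted genes, and in a single direction of cross strain and parent of origin cannot be told apart for them. Sap18, a corepressor subunit, went from 25.2 ± 5.85% to 51.6 ± 10.9% maternal (edgeR adjusted p = 0.00357), as paternal reads went from 73.8 ± 8.8 to 24.4 ± 6.55 CPM while maternal reads were 25.2 and 26.5 CPM. Mospd3 went from 14.1 ± 8.71% to 41.2 ± 4.38% and 4933412E12Rik from 31.9 ± 5.76% to 72.2 ± 16.9%. Yipf4 went from 49.7 ± 9.65% to 72.2 ± 5.63%. These 3 calls were lost in 3 of 24 alternatives for Mospd3, 11 of 23 for 4933412E12Rik and 6 of 24 for Yipf4. In the paternal direction, Dnaaf5 went from 89.3 ± 5.53% to 61.3 ± 10.2% and Pth1r, the parathyroid hormone receptor, from 93.7 ± 4.49% to 68.0 ± 12.6% maternal. Tapbpl, at 96.9 ± 6.25% (SD, n = 4) and 66.4 ± 11.3%, and Exoc3l2, at 98.6 ± 3.19% (SD, n = 5) and 74.3 ± 13.8%, had at most 24 and 17 reads in a wild-type embryo, and their calls were lost in 10 and 15 of 20 alternatives. The call for Dnaaf5 was lost in 2 of 24, and those for Sap18 and Pth1r in none of 24 and 23.

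**Figure D5:**
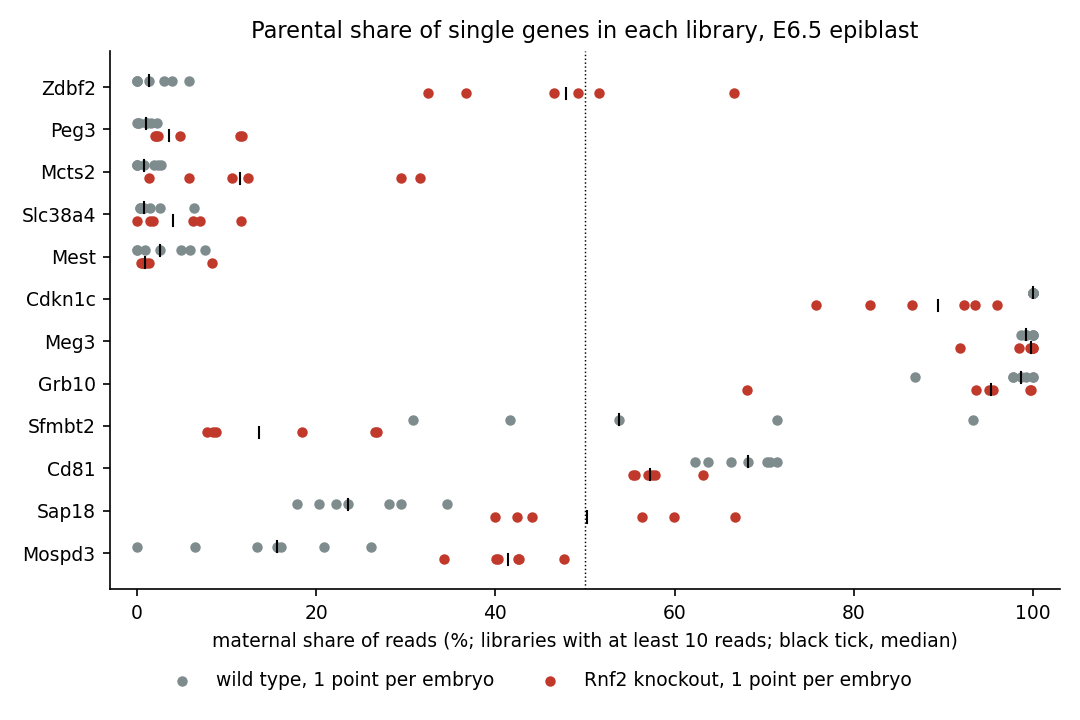
Maternal share of reads (%) of 12 genes in each library with at least 10 reads, 1 point per embryo with the median as a black tick and a dotted line at equal parental shares. Zdbf2 moves from 0 to 5.77% in the wild type to 32.5 to 66.7% in the knockout, while Mest and Meg3 stay near the ends.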

How the data were processed

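Per the file headers, the authors deposited for each gene and library the count of reads over BDF1/CAST polymorphisms, an allelic ratio (CAST share minus 0.5) and an allelic score, a signed -log10 binomial p-value. Per the submitters' processing notes, STAR 2.5.0, HTSeq and mm10 were used. The polymorphisms, filters and strand setting are not given in the sources used here, so overlapping genes may share reads. All columns were mapped (0 left over).

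Counts of autosomal genes were compared with edgeR 4.0.16 (R 4.3.3) after its filter on low counts and TMM scaling, with a two-sided quasi-likelihood test, Benjamini-Hochberg adjustment over all genes tested and a threshold of 0.05, on the groups compared only. SE is that of the log2 fold change. Because the knockout libraries are deeper, a library thinned to 1311863 reads was an alternative. Allele counts were recovered from ratio and score. Of the scored, unsaturated values, 99.997% matched a whole number of reads, and 8.51% of reads lay in values whose score was at its limit, where the rounded ratio set the counts. The allelic test, with a term per library, needed 10 reads or more in 3 or more libraries on each side. Alternatives also used DESeq2 1.42.0 and limma 3.58.1. The fitting was tested on simulated data. Promoters came from RefSeq (GRCm38.p6).

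Libraries and gene lists were chosen with earlier results of these data known. Named were Rnf2, Ring1, Zdbf2, Slc38a4 and Cd81, the called genes with the 12 largest rises and 8 largest falls without overlap, the 6 smallest adjusted p in each direction, up to 4 called genes per list and direction (or the most abundant), and the called allelic genes. A gene that this rule picked is not reported here. Other genes (Dazl, Fkbp6, Cdkn1a, Bax, Nanog, Fgf5, Otx2, Sox2, T, H19, Elf5, Afp, Ttr, Cdx2, Pcgf6, Mga, E2f6, L3mbtl2 and most Hox genes) were named after their values were seen. The leading markers Col4a1, Col4a2, Lamb1, Dab2, Npc2, Lrp2, Dcn and Pgr were not called.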

Additional observations from a re-analysis of the deposited data

Results flagged for a closer look

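Among 112 groups of values checked, 22 had an end sample set apart from the rest of its group by Dixon's criterion, which chance meets in about 1 of 20 groups. Wild-type embryo 8, the library high in receptor reads, accounted for 11. Its summed level was 852 CPM for developmental transcription factors, 1347 CPM for visceral endoderm markers and 366 CPM for parietal endoderm markers, all the highest of the wild type, and 284 CPM for naive pluripotency genes, the lowest. It was also highest for LOC108168883 (525 CPM), Pilra (239 CPM), Ppm1k (51.8 CPM), Cyp2e1 (32.8 CPM) and Zbp1 (2.29 CPM). Its maternal share was set apart for Slc38a4 (6.33%) and Tapbpl (87.5%, against 100% in the other wild types).

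In the other wild-type embryos the values set apart were mostly of 1 or a few reads. They were Cxcl14 and Sycp1-ps1 at 0.843 CPM and Tcl1 at 2.53 CPM in embryo 1, Gm38462 at 0.396 CPM and an Exoc3l2 maternal share of 92.9% in embryo 6, and Tex101 at 0.726 CPM in embryo 7. In the knockout, embryo 1 had the highest streak list (579 CPM), embryo 5 the highest Cd81 maternal share (63.2%), and embryo 8 the lowest Hoxd13 level (11.2 CPM), the lowest Pth1r maternal share (43.7%) and the highest Slc38a4 level (213 CPM).

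For 23 named genes the level differed between Rnf2 and Eed knockout epiblast in a direct edgeR test (adjusted p under 0.05). Most named genes were picked for their change in these same Rnf2 libraries, which favours such a difference, so the count is no separate support. Of all 10461 tested genes, 238 (2.28%) were higher in the Rnf2 knockout and 169 (1.62%) lower. Differences are log2, Rnf2 over Eed. The germline genes among the 23 were all higher in the Rnf2 knockout, while on the whole germline list 16 of 39 tested genes were. They were Tex101 at 4.77, Slc25a31 at 3.04, Syce1 at 2.94, Ddx4 at 2.37, Sycp1-ps1 at 2.23 and Sycp1 at 1.80. The naive genes Dppa2, Dppa4 and Tcl1 differed by 2.57, 2.50 and 2.33, and Gdf3 by 2.31. Hoxb7 differed by 2.87 and Barx1 by 1.14. Bmp4, Dnmt3l and Krt18, which wild-type ExE also expresses, differed by 1.96, 1.93 and 0.93. Outside these groups the differences were 1.84 for Cxcl14, 1.55 for Zbp1, 1.45 for Psmb8, 1.07 for Cbx8 and 1.00 for Ccng1. Lower in the Rnf2 knockout were Hlf at -2.27, Nr6a1 at -1.18 and Mtf2 at -0.55.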

How the results depend on the processing

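No call of a named gene changed direction under any alternative run. Of 1797 higher and 1258 lower expression calls, leaving out 1 embryo at a time gave 2547 to 3827 calls in all. Without a filter on low counts 772 genes were lower. Female embryos alone (3 against 2) gave 130 calls, 111 higher and 19 lower, so most named calls were lost there. Without the 3 Elf5-positive knockout embryos there were 1579 calls, 999 higher and 580 lower, with fewer samples, and 36 allelic calls, 16 of them paternal. These alternatives on Elf5 and on receptor reads were chosen after seeing the data.

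Embryo numbers are shared by 5 pairs but did not pair the samples (correlations of deviations from -0.144 to 0.083). With the number as a replicate block there were 1129 calls, 858 higher and 271 lower, against 1823, 1196 higher and 627 lower, in the same 10 libraries without the block. For the parental share the block gave 20 calls, 11 maternal and 9 paternal, against 22, 12 and 10.

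Of the 63 allelic calls, limma on log2 ratios gave 31, 11 of them paternal, and male embryos gave 38, 18 maternal and 20 paternal. All BDF1xCAST epiblast groups in 1 fit gave 108, 63 paternal. Leaving out 1 embryo gave 37 to 69, with 18 to 34 maternal and 16 to 35 paternal, the lowest total without wild-type embryo 7. Against Eed, 266 genes were lower without TMM and 108 after thinning. Where fewer samples were not the alternative's own construction, the cause was not tested. Depth limits the wild type most, where 24 of 35 Hox genes had no read.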
